A study of Homo sapiens with 6 samples.

Results

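SREBP2, encoded by SREBF2, is the transcription factor that turns on cholesterol synthesis when sterols are scarce, and the 8 genes described here encode the factor, the proteins that hold, move and cut it, and 2 carriers of cholesterol. They were measured by RNA sequencing in DU145 cells, an androgen-independent human prostate cancer line, first grown from a metastasis in the brain. The members were chosen by gene symbol, as SREBF2, SCAP, INSIG1, INSIG2, MBTPS1, MBTPS2, STARD4 and NPC1, at a time when the fold changes of this comparison, that of INSIG1 among them, were already known. Their values in treated against control cells are therefore given as a description. Counts of members past a threshold stand beside the share of all tested genes past it and support nothing. All 8 are listed among the 23062 identifiers of each library, and all 8 were among the 12359 genes with enough signal to be tested.

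Of the 6 libraries, 3 came from control cells kept in MEM medium with serum and 3 from cells exposed to taraxasterol (TAX), a pentacyclic triterpene of dandelion, each for 48 h. All carry the wild-type label and the same growth conditions, and TAX was given at the IC50 found for this line. TAX was dissolved in DMSO, and the labels name only medium for the control cells, so that the solvent and TAX cannot be told apart. The labels do not say whether the libraries of a group came from independent cultures, and the methods of the study say only in general that experiments were repeated, so p-values measure the spread between these libraries, which may be technical.

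Expression was taken as FPKM, a level scaled to the length of the transcript and to the mapped fragments of the library. The summed FPKM ran from 322483 to 363724 per library, and the depth in reads is unknown. Control replicate 3 stood apart by its scale, with a median log2(FPKM + 1) of 3.28 over the tested genes where the other 5 libraries lay between 3.44 and 3.46. Results that rest on this library are given with it, without it, and with the library medians set equal (median centring). The epithelial markers KRT8, KRT18, KRT19, EPCAM and CDH1 were all expressed, while KLK3, the gene of PSA, was listed at 0 in every library. The summed level of these 5 epithelial markers was 428 to 545 FPKM in the control libraries, lowest in control replicate 3, and 555 to 606 FPKM in the TAX libraries. The markers did not move alike. KRT18, KRT19 and EPCAM were higher in every TAX library than in any control library, while KRT8 and CDH1 overlapped. CDH1 had 54.9, 66.8 and 40.7 FPKM without and 50.8, 42.8 and 49.0 FPKM with TAX. The part of these markers in the results below was not tested. The 5 leukocyte markers summed to at most 0.490 FPKM and the 4 endothelial markers to at most 0.154 FPKM in any library. The 6 fibroblast markers summed to 1.94 to 2.12 FPKM in the control and 1.495 to 1.58 FPKM in the TAX libraries, nearly all of it from COL1A1, with DCN, LUM and COL1A2 listed at 0 in every library. In bulk RNA of this kind, fewer cells of one kind and less RNA per cell cannot be told apart.

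SREBP2 is made as a precursor in the membrane of the endoplasmic reticulum, bound to its escort SCAP. When sterols are plentiful, the anchors INSIG1 and INSIG2 hold SCAP in place. When sterols are scarce, SCAP carries SREBP2 to the Golgi in COPII vesicles, where the site-1 protease (MBTPS1) and the site-2 protease (MBTPS2) release the part that enters the nucleus. There it switches on genes of cholesterol synthesis and uptake, INSIG1, STARD4 and its own gene among them. STARD4 is a soluble carrier that moves cholesterol between membranes, and NPC1 lets cholesterol that arrived with lipoproteins leave the lysosome.

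The promoters of SREBF2, INSIG1 and STARD4 are shown because these genes are known targets of the factor itself and because the latter pair are the members with the lowest TAX levels relative to control. Each sequence is the 250 bases before the RefSeq start of the gene (GRCh38.p14), 5′ to 3′ on the strand of the gene, with capitals for the sterol regulatory element core (TCACNCCAC, or its shorter form CACNCCAC), the E-box (CACGTG) and the CCAAT box (CCAAT), on either strand. The windows are chr22:41832855-41833104 on the plus strand for SREBF2, chr7:155297628-155297877 on the plus strand for INSIG1 and chr5:111512536-111512785 on the minus strand for STARD4.
SREBF2: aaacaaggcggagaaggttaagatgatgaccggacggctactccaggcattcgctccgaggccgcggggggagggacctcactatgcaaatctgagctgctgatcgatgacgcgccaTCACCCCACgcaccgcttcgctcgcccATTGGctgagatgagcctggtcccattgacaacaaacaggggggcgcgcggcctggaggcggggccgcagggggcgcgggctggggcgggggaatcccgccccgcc
INSIG1: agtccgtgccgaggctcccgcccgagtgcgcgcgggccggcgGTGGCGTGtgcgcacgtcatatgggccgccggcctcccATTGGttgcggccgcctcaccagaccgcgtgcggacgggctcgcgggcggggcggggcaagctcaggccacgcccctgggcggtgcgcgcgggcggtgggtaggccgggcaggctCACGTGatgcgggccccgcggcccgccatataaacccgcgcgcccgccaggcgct
STARD4: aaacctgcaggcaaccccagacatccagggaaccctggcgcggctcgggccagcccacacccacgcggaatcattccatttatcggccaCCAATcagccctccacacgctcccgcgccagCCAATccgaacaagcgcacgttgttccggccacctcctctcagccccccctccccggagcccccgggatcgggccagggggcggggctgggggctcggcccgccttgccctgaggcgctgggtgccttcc

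Only the SREBF2 window of the 8 genes held the core TCACNCCAC, 133 to 125 bases before the start, with a CCAAT box on the opposite strand from 106 to 102 bases before it. This core occurred in 0.883% of the 35116 RefSeq promoter windows of the same length. The shorter form CACNCCAC, which lies within the longer one, was found in SREBF2 and, on the opposite strand 208 to 201 bases before the start, in INSIG1, against 4.87% of all windows. INSIG1 also had an E-box from 55 to 50 bases before the RefSeq start, as did SCAP from 58 to 53 bases, against 6.34% of all windows. The GENCODE gene spans given below begin upstream of the RefSeq start for all members but MBTPS1 and MBTPS2. By those spans the E-boxes of INSIG1 and SCAP lie inside the genes, as do the whole windows of SCAP and NPC1. The windows of SREBF2, STARD4 and INSIG2 then reach into the genes at their 3′ end, but the capitals shown for SREBF2 and STARD4 lie before the spans. CCAAT boxes were found in SREBF2, INSIG1 and STARD4, that is 3 of the 8 genes, against 32.0% of all windows. STARD4 had a pair of them, 161 to 157 and 130 to 126 bases before the start. None of these 4 motifs was found in the windows of INSIG2, for which RefSeq lists a pair of starts, or of MBTPS1, MBTPS2 and NPC1. The GC box GGGCGG was found in 6 of the 8 genes, all but MBTPS1 and MBTPS2, against 42.6% of all windows. Of the cholesterol synthesis enzymes described below, 17 had a window, and the same search found TCACNCCAC in 0 of them and CACNCCAC in 2. A missing match is therefore not read as a lack of control by SREBP2. A match is a run of letters and not a measured binding site.

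In control cells the 8 genes spanned a range from 8.38 ± 0.291 FPKM for MBTPS2 to 80.3 ± 9.21 FPKM for NPC1 (mean ± SD, n = 3 each). NPC1 exceeded SREBF2, at 55.8 ± 7.06 FPKM, in 6 of 6 libraries. SREBF2 and MBTPS1, at 52.2 ± 5.09 FPKM, overlapped in the control libraries, with SREBF2 the higher in 5 of 6 libraries. INSIG1 followed with 31.3 ± 4.14 FPKM, apart from its neighbours in the order in every library. STARD4 with 14.8 ± 2.47 FPKM, SCAP with 14.3 ± 1.45 FPKM and INSIG2 with 12.8 ± 2.66 FPKM (SD, n = 3 each) could not be ordered, since their control values overlapped. The factor and its site-1 protease were thus expressed at levels several times those of the escort and of the site-2 protease, and NPC1 lay above 94.8% of all tested genes by its control mean. STARD4 was above SCAP in 2 of 3 control libraries and in 0 of 3 TAX libraries.

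**Figure D1:**
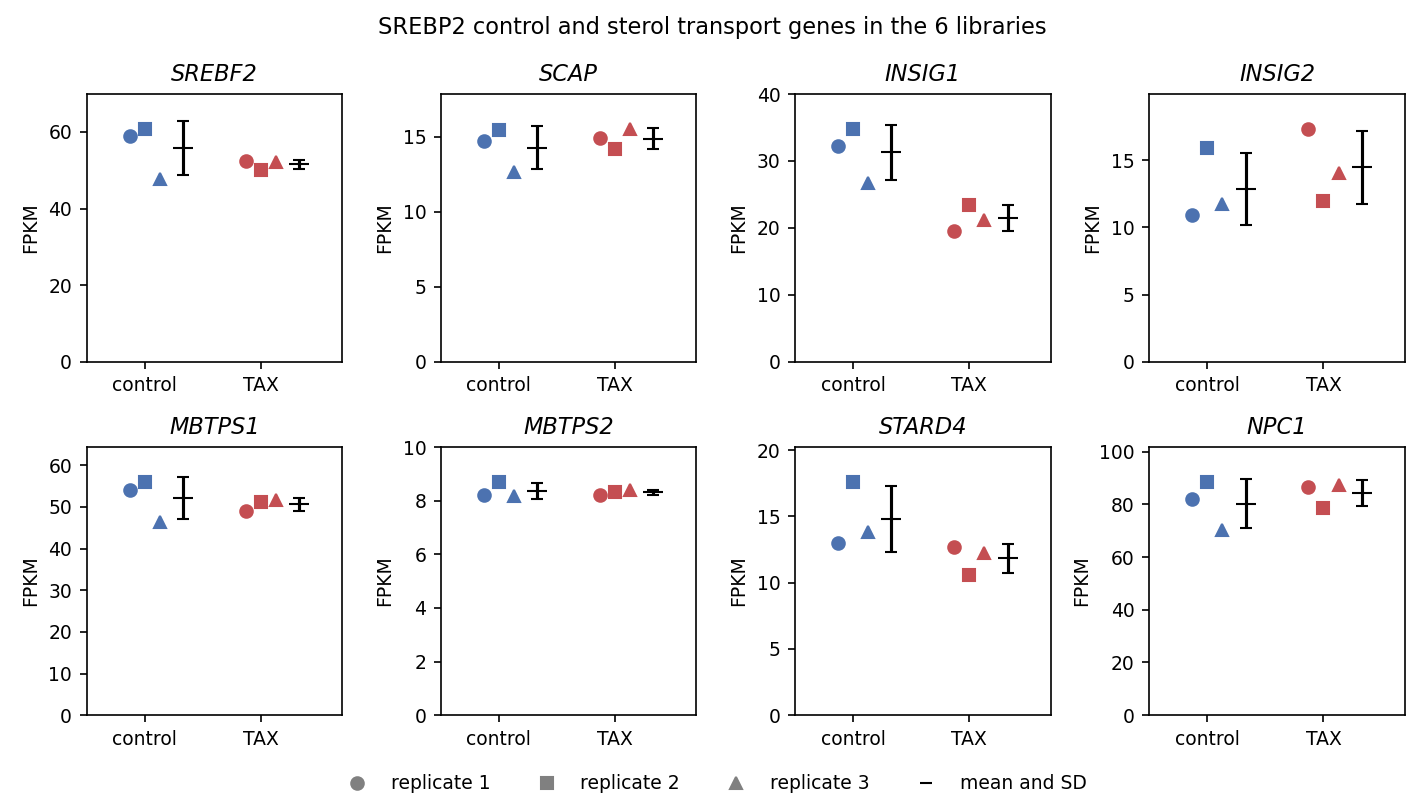
FPKM (vertical axis, from 0) of the 8 genes in 3 control libraries (blue) and 3 TAX libraries (red), with marker shape for the replicate number and black bars for the mean and SD. INSIG1 (TAX 19.6 to 23.4 against control 26.7 to 34.8 FPKM) and STARD4 (10.6 to 12.7 against 12.98 to 17.6 FPKM) show no overlap between the groups, and the other 6 genes overlap.

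As deposited, INSIG1 and STARD4 were the members with lower levels in every TAX library than in any control library, and SREBF2 itself differed little. Across all genes, limma with its mean-variance trend called 0 of the 8 members at a Benjamini-Hochberg adjusted p under 0.05, against 0.477% of the tested genes. At an unadjusted p under 0.05, 2 members were lower, INSIG1 and STARD4, and 0 were higher, where 2.41% of all tested genes were lower and 7.73% were higher. The same 2 members had TAX values wholly below the control values, against 3.34% of all genes, and 0 members lay wholly above, against 14.6% of all genes. Since the members were chosen with this comparison known, nothing is read from these shares. The median log2 fold change of the 8 genes was -0.023, beside 0.054 for all tested genes.

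The INSIG1 protein is the anchor whose own gene answers to SREBP2, so that it closes a feedback loop. INSIG1, gene ENSG00000186480.12 which GENCODE 29 (GRCh38) places on chromosome 7 from 155297776 to 155310235, was at 32.3, 34.8 and 26.7 FPKM without TAX, in the order of replicates 1 to 3, and at 19.6, 23.4 and 21.2 FPKM with it. The lowest control value, that of replicate 3, was still above the highest TAX value. The mean of 31.3 ± 4.14 FPKM without and 21.4 ± 1.94 FPKM with TAX (SD, n = 3 each) gave a log2 fold change of -0.52 on the log2(FPKM + 1) scale (standard error 0.11), or a mean lower by 31.6%. INSIG1 ranked 50 from the largest decrease among the 12359 tested genes. With the library medians set equal the log2 fold change was -0.58, without control replicate 3 it was -0.63 and without control replicate 2 it was -0.44.

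INSIG2 encodes the second anchor, whose gene is not a classical target of SREBP2. INSIG2, on chromosome 2 from 118088452 to 118110997, had 10.9, 15.9 and 11.7 FPKM without TAX and 17.3, 11.9 and 14.1 FPKM with it, in the order of the replicates. The groups overlapped, and both the spread within control and that within TAX were as large as the difference between the means. The log2 fold change of INSIG2 was 0.16 (standard error 0.15), with values from 0.030 without TAX replicate 1 to 0.31 without control replicate 2.

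Within a library, a ratio of FPKM does not depend on the scale of that library, and the shares of both anchors are given on that basis. The ratio of INSIG1 to INSIG2 was 2.96, 2.196 and 2.28 without TAX and 1.13, 1.96 and 1.51 with it, so that no TAX library reached the lowest control library. The difference was -0.72 on the log2 scale (standard error 0.27, n = 3 each), and -0.91 to -0.51 with 1 library left out. INSIG1 was chosen with its lower level known, so the lack of overlap is a description. INSIG1 supplied 68.7 to 74.8% of the summed FPKM of both anchors in control and 53.0 to 66.3% in TAX-treated cells. The sum itself was 43.2, 50.7 and 38.5 FPKM without and 36.9, 35.4 and 35.3 FPKM with TAX, again without overlap. The gap between the sums of control replicate 3 and TAX replicate 1 was small beside the spread of the control libraries.

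SCAP, the escort, has the sterol-sensing domain that the anchors bind. SCAP, on chromosome 3 from 47413694 to 47477126, had 14.7, 15.4 and 12.6 FPKM without and 14.9, 14.2 and 15.5 FPKM with TAX, and the groups overlapped. Its log2 fold change was 0.059 (standard error 0.090), and it was -0.020 without control replicate 3. The ratio of SCAP to the summed FPKM of INSIG1 and INSIG2 was 0.341, 0.304 and 0.328 in control and 0.404, 0.400 and 0.440 in TAX-treated cells. Every TAX library thus held more SCAP transcript per anchor transcript than any control library, by 0.35 on the log2 scale (standard error 0.065, n = 3 each). The numerator overlapped between the groups while the denominator was lower after TAX treatment. These are ratios of transcripts, and protein levels were not measured in this series.

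**Figure D2:**
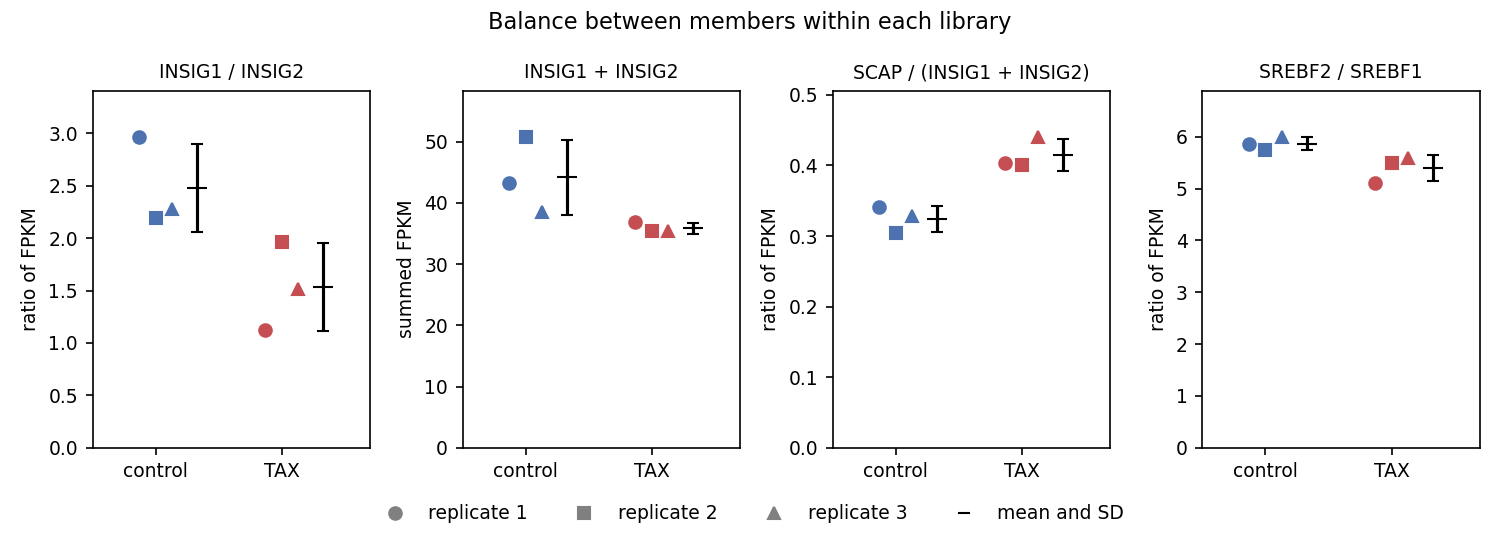
Ratios and sums of FPKM within each library (vertical axes, from 0) for 3 control (blue) and 3 TAX (red) libraries, with marker shape for the replicate number and black bars for the mean and SD. The ratio of INSIG1 to INSIG2 is lower in all 3 TAX libraries (1.13 to 1.96 against 2.196 to 2.96), the ratio of SCAP to both anchors is higher (0.400 to 0.440 against 0.304 to 0.341), and the ratio of SREBF2 to SREBF1 is lower (5.11 to 5.59 against 5.74 to 5.99).

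SREBF2, gene ENSG00000198911.11 on chromosome 22 from 41833079 to 41907308, had 58.9, 60.9 and 47.8 FPKM without and 52.3, 50.1 and 52.2 FPKM with TAX. Control replicates 1 and 2 lay above all TAX libraries, and control replicate 3 lay below them. The log2 fold change of SREBF2 was -0.11 (standard error 0.10). It was -0.16 with the library medians set equal, where the groups no longer overlapped, -0.21 without control replicate 3 and -0.041 without control replicate 2. The direction was the same in all 9 alternatives that can move a fold change, but the size depended on these 2 control libraries. Set against SREBF1, the paralog that encodes the fatty acid regulator SREBP1, the level of SREBF2 was 5.86, 5.74 and 5.99 times as high in control and 5.11, 5.49 and 5.59 times as high in TAX-treated cells. That ratio is free of the scale of the libraries and did not overlap between the groups, with a difference of -0.12 on the log2 scale (standard error 0.044). SREBF1 itself had 9.54 ± 1.39 FPKM without and 9.57 ± 0.602 FPKM with TAX (SD, n = 3 each). The gene of the microRNA MIR33A lies within SREBF2 on the same strand and was not analysed here.

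The genes of both proteases differed by less than the spread between replicates. MBTPS1, the serine protease that makes the first cut, on chromosome 16 from 84053761 to 84116906, had 54.1, 56.1 and 46.4 FPKM without and 48.9, 51.3 and 51.8 FPKM with TAX. Its log2 fold change was -0.038 (standard error 0.090). As with SREBF2, the overlap came from control replicate 3, and after centring on the library median the groups of MBTPS1 did not overlap, with a log2 fold change of -0.096. After that centring 4 of the 8 members, namely SREBF2, INSIG1, MBTPS1 and STARD4, lay wholly below the control values, against 9.53% of all genes. MBTPS2, the zinc protease that cuts within the membrane, on chromosome X from 21839636 to 21885424, had the fold change nearest to 0 as deposited, but not with the library medians set equal, where it was -0.066 beside 0.0012 for SCAP. It had 8.23, 8.71 and 8.19 FPKM without and 8.23, 8.31 and 8.42 FPKM with TAX, which gave -0.0078 as the log2 fold change (standard error 0.074, 95% interval -0.17 to 0.16). The gene YY2 lies within MBTPS2 on the same strand and had 0.784 to 1.29 FPKM, so reads of the shared 2741 bases can be of either gene.

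STARD4, gene ENSG00000164211.12 on chromosome 5 from 111496033 to 111512590, had 12.98, 17.6 and 13.8 FPKM without and 12.7, 10.6 and 12.2 FPKM with TAX. All TAX values lay below all control values, although control replicate 1 and TAX replicate 1 were close. The mean was lower by 19.9%, from 14.8 ± 2.47 to 11.8 ± 1.09 FPKM (SD, n = 3 each), which gave a difference of -0.29 on the log2 scale (standard error 0.12). Control replicate 2 was the highest by far, and without it the log2 fold change of STARD4 was -0.17. With each other library left out it was -0.22 to -0.37. STARD4 ranked 204 from the largest decrease among the 12359 tested genes. STARD4 overlaps the antisense gene STARD4-AS1 over 365 bases, which was not analysed here.

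NPC1, the lysosomal exporter of cholesterol, on chromosome 18 from 23506184 to 23586898, had 82.0, 88.6 and 70.4 FPKM without and 86.7, 78.6 and 87.5 FPKM with TAX. The groups overlapped widely, and the log2 fold change was 0.074 (standard error 0.10, 95% interval -0.15 to 0.29). It was -0.017 without control replicate 3. NPC1 shares 25624 bases with RMC1 on the opposite strand, which had 18.5 to 23.4 FPKM, and the sources used here do not state whether counting used strand. The highest control value was in control replicate 2 for 8 of 8 members and the lowest in control replicate 3 for 6 of 8.

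**Figure D3:**
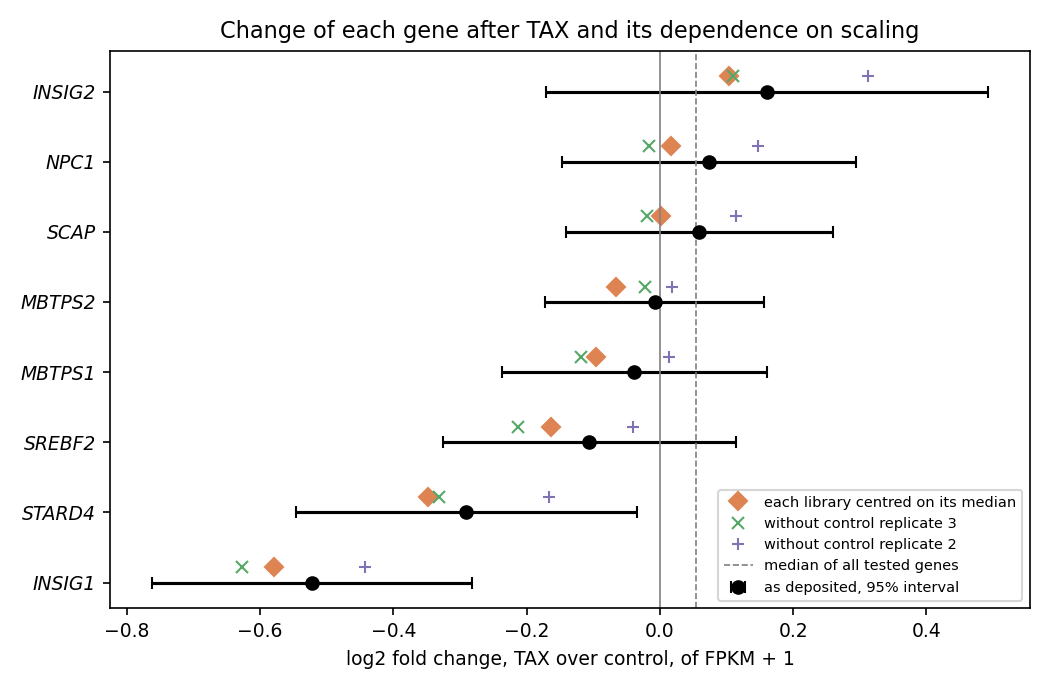
Log2 fold change of TAX over control on the log2(FPKM + 1) scale (horizontal axis) for the 8 genes, as black points with 95% intervals from limma, and the same after centring on the library median (orange) and without control replicate 3 (green) or 2 (purple). INSIG1 (-0.52), STARD4 (-0.29) and SREBF2 (-0.11) stay below 0 and INSIG2 (0.16) above 0 in each of these, while SCAP, NPC1, MBTPS1 and MBTPS2 lie on both sides of 0.

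The genes whose levels followed those of the members most closely over the 6 libraries were taken by Pearson's r of log2(FPKM + 1) among all tested genes with a symbol. The 6 points share the difference between the groups and the scale of each library, and these r are the highest among 11639 genes, so they describe likeness only. The pattern of INSIG1 was most like that of IL6, the gene of the cytokine interleukin-6 (r = 0.994, 6 libraries), C12orf4 (r = 0.991) and SUSD2 (r = 0.989). IL6 had 5.67 to 7.49 FPKM without and 3.35 to 4.27 FPKM with TAX. The pattern of STARD4 was most like those of TENT5A (r = 0.990), BTG2 (r = 0.983) and the histone gene H1-4 (r = 0.982), and that of SREBF2 most like those of CTSF (r = 0.994), MFSD12 (r = 0.993) and CAT, the gene of catalase (r = 0.991).

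The enzymes of cholesterol synthesis, the main targets of SREBP2, were lower together with INSIG1 and STARD4. Of 22 tested enzyme genes, 1 fell at an adjusted p under 0.05 (limma) and 0 rose, where 0.477% of all tested genes passed in either direction. At an unadjusted p under 0.05, 12 were lower and 0 higher, where 2.41% and 7.73% of all tested genes were. As deposited, 10 lay wholly below the control values, against 3.34% of all genes, and 1 wholly above, against 14.6%. The latter was PMVK, a kinase of the mevalonate pathway named after its values were seen. With the library medians set equal, 18 lay wholly below, against 9.53% of all genes. The median log2 fold change was -0.24 beside 0.054 for all tested genes, and 20 of the 22 were below 0, beside 30.9% of all tested genes. The 1 call became 3 with the library medians set equal, and 0 with any library other than control replicate 3 left out. This list was written from the textbook pathway but with earlier results known, so it is no independent evidence. The gene that passed was MSMO1, a sterol demethylase, with 50.7, 59.2 and 50.7 FPKM without and 35.7, 37.8 and 35.8 FPKM with TAX (log2 fold change -0.54, standard error 0.087). TM7SF2, a sterol reductase, had 21.5 ± 2.47 and 16.4 ± 1.32 FPKM, and HMGCS1, the synthase at the entry of the mevalonate pathway, had 64.1 ± 5.36 and 50.2 ± 4.48 FPKM without and with TAX (SD, n = 3 each; adjusted p = 0.224 and 0.229 from limma). The log2 fold change of INSIG1 was close to that of MSMO1, and that of STARD4 lay near the middle of the enzymes, whereas SREBF2, SCAP and the proteases lay above most of them.

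Of the 19 genes of ubiquitin ligases and degradation in the endoplasmic reticulum, which remove INSIG proteins and the sterol-regulated reductase, 0 passed an adjusted p under 0.05 (limma) in either direction, where 0.477% of all tested genes did. At an unadjusted p under 0.05, 1 was higher and 0 lower, beside 7.73% and 2.41% of all tested genes. The log2 fold change was above 0 for 18 of the 19, but 69.1% of all tested genes lay above 0, and after centring on the library median 14 of 19 did, beside 48.7% of all genes. RNF145, a sterol-responsive ubiquitin ligase that acts on SCAP, had 19.7, 24.5 and 23.0 FPKM without and 26.1, 27.0 and 26.8 FPKM with TAX (log2 fold change 0.24, standard error 0.091, adjusted p = 0.411 from limma). UBE2J2, a ubiquitin-conjugating enzyme, also lay wholly above the control values, with a log2 difference of 0.21 (adjusted p = 0.507 from limma).

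Of 14 genes listed for the COPII coat and exit from the endoplasmic reticulum, 0 passed an adjusted p under 0.05 (limma), where 0.477% of all tested genes did. At an unadjusted p under 0.05, 1 was higher and 0 lower, beside 7.73% and 2.41% of all tested genes. The median log2 fold change was 0.080. Of the 14, 12 lay above 0 as deposited and 8 with the library medians set equal, where 69.1% and 48.7% of all tested genes did. The gene with the smallest p was PAQR3, which tethers SCAP and SREBP2 to the Golgi, with 5.61, 7.32 and 6.60 FPKM without and 8.17, 7.79 and 8.40 FPKM with TAX (log2 fold change 0.29, standard error 0.096, adjusted p = 0.351 from limma). Of 12 nuclear partners, 0 passed an adjusted p, 1 was higher and 1 lower at an unadjusted p under 0.05, and 10 lay above 0 as deposited against 6 with the library medians set equal, beside the same shares of all genes. NFYB, a subunit of the factor NF-Y that binds CCAAT boxes, had 15.2 ± 0.620 FPKM without and 12.97 ± 0.290 FPKM with TAX, and the groups did not overlap (SD, n = 3 each; adjusted p = 0.373 from limma). MED15, a Mediator subunit that SREBPs contact, had 45.0 ± 6.29 and 52.9 ± 0.598 FPKM (adjusted p = 0.479 from limma), with control replicate 3 the lowest at 38.1 FPKM.

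Among 28 other genes of lipoprotein uptake and sterol transport, 27 were tested, and 0 had an adjusted or an unadjusted p under 0.05 (limma) in either direction. Of all tested genes, 0.477% had an adjusted p under 0.05 (limma), and 2.41% were lower and 7.73% higher at an unadjusted one. SOAT2, a sterol acyltransferase, was not tested, being listed at 0 in 5 libraries and at 0.0234 FPKM in TAX replicate 2. As deposited, 0 of the 27 genes were free of overlap between the groups, where 3.34% of all genes lay wholly below and 14.6% wholly above the control values. With the library medians set equal 3 lay wholly below, against 9.53% of all genes. The median log2 fold change was 0.033. Above 0 lay 19 of the 27 as deposited and 12 with the library medians set equal, beside 69.1% and 48.7% of all tested genes. The smallest p belonged to OSBPL8, an oxysterol-binding protein, with 11.1 ± 1.00 and 12.8 ± 0.842 FPKM, and TMEM97, a protein that binds NPC1, with 20.4 ± 1.43 and 17.7 ± 2.03 FPKM without and with TAX (SD, n = 3 each; adjusted p = 0.492 and 0.510 from limma). NPC2, which hands cholesterol to NPC1, differed by 0.080 on the log2 scale (standard error 0.088) and LIPA, the lysosomal acid lipase, by -0.079 (standard error 0.080), and both were named after their values were seen.

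**Figure D4:**
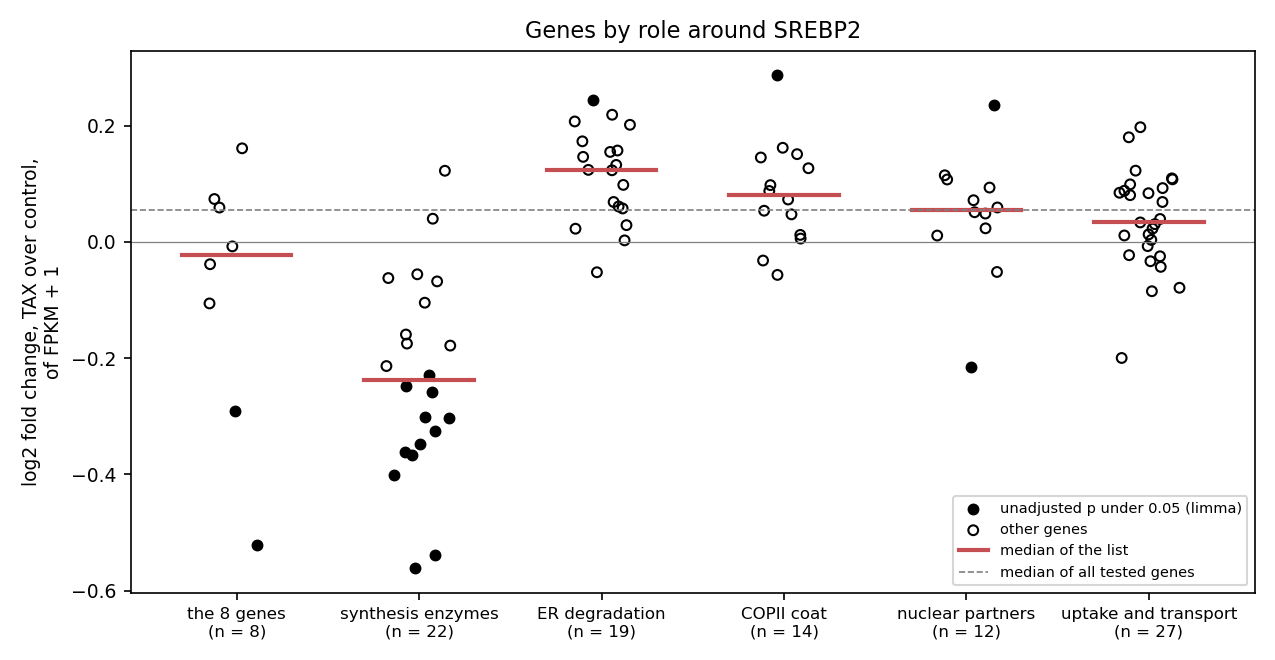
Log2 fold change of TAX over control on the log2(FPKM + 1) scale (vertical axis) for the 8 genes and 5 lists by role, with filled points for an unadjusted p under 0.05 (limma), red lines for list medians and a dashed line for the median of all tested genes (0.054). The synthesis enzymes (median -0.24) lie below the dashed line for most genes, while the other 4 lists have medians from 0.033 to 0.12.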

How the data were processed

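RNA of 6 DU145 libraries, 3 control and 3 TAX, was analysed from 1 deposited table per library. The values were taken as FPKM made by the authors, judging by their decimals and unequal sums, but the labels do not name the unit, and TPM is not wholly excluded. HISAT2 2.2.0, StringTie 2.1.2 and GRCh38 are named in the submitters' processing notes. The annotation and strand setting are not given in the sources used here. Depth in reads is unknown, so no counting interval is given.

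A gene was kept when 3 libraries or more reached 1 FPKM. A linear model on log2(FPKM + 1) was fitted in R 4.3.3 by limma 3.58.1, the variance following a trend with the mean, and p-values were adjusted after Benjamini-Hochberg over all kept genes. A fold change on this scale understates that of low genes. Members and gene lists were chosen with earlier results of these data known. The text names all 8 members, genes of each list with an adjusted p under 0.05 or among the 4 smallest p, and the 3 genes most like INSIG1, STARD4 and SREBF2. Positions are from GENCODE 29, promoters from RefSeq (GRCh38.p14), where all 8 members matched.

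Alternatives were a pseudocount of 0.1, other filters, 2 other scalings, no trend, a replicate block and leaving out each library. Some genes that the naming rule or the marker lists would name are not reported here.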

Additional observations from a re-analysis of the deposited data

How the results depend on the processing

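Of the 13 alternatives, 4 (both filters, no trend and the replicate block) leave a fold change as it is by construction. The other 9 all gave INSIG1, STARD4 and SREBF2 a log2 fold change below 0 and INSIG2 one above 0, while those of SCAP and NPC1 changed sign in 2 each and those of MBTPS1 and MBTPS2 in 1 each. Of the 72 member values under these 9, 70 moved by less than 1 SD between replicates. This count does not measure stability, since leaving out 1 of 3 libraries cannot move a fold change by 1 pooled SD. Only the pseudocount and the 2 other scalings could do so. The values that moved further were those of MBTPS2, at -0.066 after centring on the library median and -0.064 after quantile normalization.

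The count of members called was 0 as deposited, 1 after quantile normalization, 1 after centring on the library median and 0 to 1 with 1 library left out, the 1 without control replicate 3. That member is INSIG1, which was chosen with its fold change known, so its call is no independent evidence. STARD4 did not reach an unadjusted p under 0.05 without control replicate 2, without TAX replicate 2 or without a filter. SREBF2 was lower at an unadjusted p of 0.030 after quantile normalization, 0.032 after centring and 0.0070 without control replicate 3 (limma). Its adjusted p was 0.360, 0.358 and 0.239 in these settings. INSIG2 was higher at an unadjusted p of 0.041 without control replicate 2 (limma, adjusted p = 0.356). The 59 genes called as deposited (39 higher, 20 lower) became 95 (47 higher, 48 lower) after quantile normalization, 96 (46 higher, 50 lower) after centring, 37 with a filter of 0.1 FPKM, 1 without a filter and 18 to 43 with 1 library left out, lowest without TAX replicate 2. Of the synthesis enzymes, 3 were called after quantile normalization and 3 after centring, 0 without a filter, and 0 to 1 with 1 library left out, with MSMO1 called only without control replicate 3. The cause was not tested.

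Deviations from the group mean correlated at -0.117, -0.333 and -0.171 for control and TAX libraries of the same number. For libraries of unlike number the values ran from -0.167 to 0.292. Deviations from a mean of 3 libraries depend on each other, so these values cannot show whether same-numbered libraries were handled together. With a replicate block 26 genes (13 higher, 13 lower), 0 members and 0 enzymes were called. No read depth was available to limit low values.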
